A study of Homo sapiens with 9 samples.

Results

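The genes described here are 10 genes tied to eosinophilic esophagitis: TSLP, CAPN14, CCL26, CDH26, POSTN, TNFAIP6, LRRC31, STAT6, IL4R and IL13RA1. They were chosen by name, as genes at risk loci of the disease or genes of the interleukin-13 (IL-13) response, and all 10 were found among the 24672 genes of the deposited tables. Their counts came from 9 RNA sequencing libraries of EPC2, a human esophageal epithelial cell line immortalized with telomerase reverse transcriptase. The SPINK7-silenced group (3 libraries) held EPC2 cells with SPINK7, a Kazal-type protease inhibitor gene, silenced, and differentiated at an air-liquid interface (ALI). The ALI control group (3 libraries) carried a non-silencing control and was differentiated in the same way, and the monolayer group (3 libraries) carried the same control and was left undifferentiated. Per the labels' protocols, ALI cultures had high calcium (1.8 mM, in place of 0.09 mM) from day 2, had the medium above the cells removed on day 7 and gave RNA on day 14. No calcium level or harvest day is recorded here for the monolayers. In contrasts with them, calcium, air exposure and time in culture cannot be told apart. The deposited ALI tables are instead named for day 7 and number several ALI libraries differently; day, group and library number here follow the labels. Cells of all 3 groups grew in keratinocyte serum-free medium with epidermal growth factor (1 ng/mL) and bovine pituitary extract (50 ug/mL), and the labels name no added cytokine. All libraries come from a single cell line grown without immune or stromal cells. The labels give neither the silencing construct nor a further silenced population, so an effect of the construct cannot be told apart from one of losing SPINK7.

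Eosinophilic esophagitis is a chronic allergic inflammation of the esophagus in which the squamous epithelium answers to IL-13 released by type 2 immune cells. IL-13 binds a receptor made of the IL4R and IL13RA1 chains, and the signal runs through Janus kinases to STAT6, a transcription factor that turns on target genes in epithelial cells. Known targets include CCL26, which encodes the eosinophil attractant eotaxin-3, CAPN14, a calpain protease largely limited to the esophagus, and CDH26, POSTN, TNFAIP6 and LRRC31. TSLP encodes thymic stromal lymphopoietin, an epithelial alarm cytokine that acts on dendritic cells, basophils and lymphocytes, and the TSLP and CAPN14 loci carry common risk variants for the disease.

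Libraries held between 7641960 and 14009746 counts. SPINK7 stood at 20.9, 38.6 and 32.7 CPM (counts scaled to the size of the library) in the silenced libraries, against 229, 261 and 225 CPM in the ALI controls. The 6 squamous markers summed to 27830 to 88180 CPM in the 9 libraries, all 3 mast cell markers were at 0, the 5 eosinophil markers summed to at most 0.212 CPM, and the T cell and leukocyte markers PTPRC and CD3D were at 0. The sum of the 4 T cell and leukocyte markers, nearly all of it IL7R, was 0.275 to 1.29 CPM in the silenced libraries, 0.252 to 2.22 CPM in the ALI controls and 8.29 to 12.45 CPM in the monolayers. The 3 endothelium markers summed to 2.34, 1.99 and 1.41 CPM in the silenced libraries and 8.84, 2.78 and 9.41 CPM in the ALI controls, nearly all of it VWF. In the monolayers they summed to at most 0.425 CPM. The source of the VWF counts was not tested. ALI libraries 2 of both groups stood apart from the other ALI libraries. On the second principal component of log2 CPM (14.0% of the variance) silenced library 2 lay at -25.5 and ALI control library 2 at -78.5, against 14.3 to 55.0 for the other 4 ALI libraries. The proliferation gene MKI67 was at 0.893 CPM in silenced library 2, against 106 and 74.8 CPM in the other silenced libraries. It was at 0.757 CPM in ALI control library 2, against 39.7 and 42.1 CPM in the other ALI controls. Results of the members that rest on these libraries are given with and without them. For genes of the lists this is done for some genes only, with the numbers called given in the last section.

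TSLP has a long and a short form, which share their last exons. Their coding sequence is shown because the deposited tables split the gene by form: the last 300 of the 480 coding bases of the long form are printed 5′ to 3′ (GENCODE 29, GRCh38 chr5:111072897-111076074, plus strand, introns removed).
TSLP coding sequence, end of the long form: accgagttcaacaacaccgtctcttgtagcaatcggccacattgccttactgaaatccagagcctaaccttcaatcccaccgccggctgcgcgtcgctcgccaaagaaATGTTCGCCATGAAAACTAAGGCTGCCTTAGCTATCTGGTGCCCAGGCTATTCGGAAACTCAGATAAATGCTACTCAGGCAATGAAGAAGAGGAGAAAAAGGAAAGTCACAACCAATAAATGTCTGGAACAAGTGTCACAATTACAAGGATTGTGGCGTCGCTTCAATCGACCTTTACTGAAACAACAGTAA
Capitals mark the 192 bases that are also the whole coding sequence of the short form, and the lower-case bases are coding in the long form alone.

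The CAPN14 promoter is shown because CAPN14 is a known STAT6 target. RefSeq windows of 300 bases (250 before a gene's start and 50 after it, GRCh38.p14) were searched on both strands for TTCNNNNGAA, the motif form that STAT6 prefers, and for TTCNNNGAA, the form of other STAT proteins. Each form reads the same on either strand, and no window of these genes held both. All 10 genes had a window, 14 windows in all. TTCNNNNGAA was found in 1 of the 14, a window of CAPN14. That window held it at 2 places, in capitals here, with first bases at -180 and -120 from the start. The window of another CAPN14 start (chr2:31233908-31234207) held neither motif.
CAPN14 promoter window (chr2:31217466-31217765, minus strand, 5′ to 3′): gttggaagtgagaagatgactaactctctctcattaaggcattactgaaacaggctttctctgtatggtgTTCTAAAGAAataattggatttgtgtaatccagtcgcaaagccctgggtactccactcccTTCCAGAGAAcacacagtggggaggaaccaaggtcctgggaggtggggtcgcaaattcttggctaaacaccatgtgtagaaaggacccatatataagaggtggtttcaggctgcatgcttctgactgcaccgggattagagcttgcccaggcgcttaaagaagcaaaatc
Of 35116 RefSeq promoter windows, 6.44% held TTCNNNNGAA at least once and 0.288% held it at 2 or more places. TTCNNNGAA was in 3 of the 14 windows (an upstream TSLP start, POSTN and a second CDH26 start), against 7.66% of all windows. These matches describe letters in a window and are no evidence of binding.

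**Figure D1:**
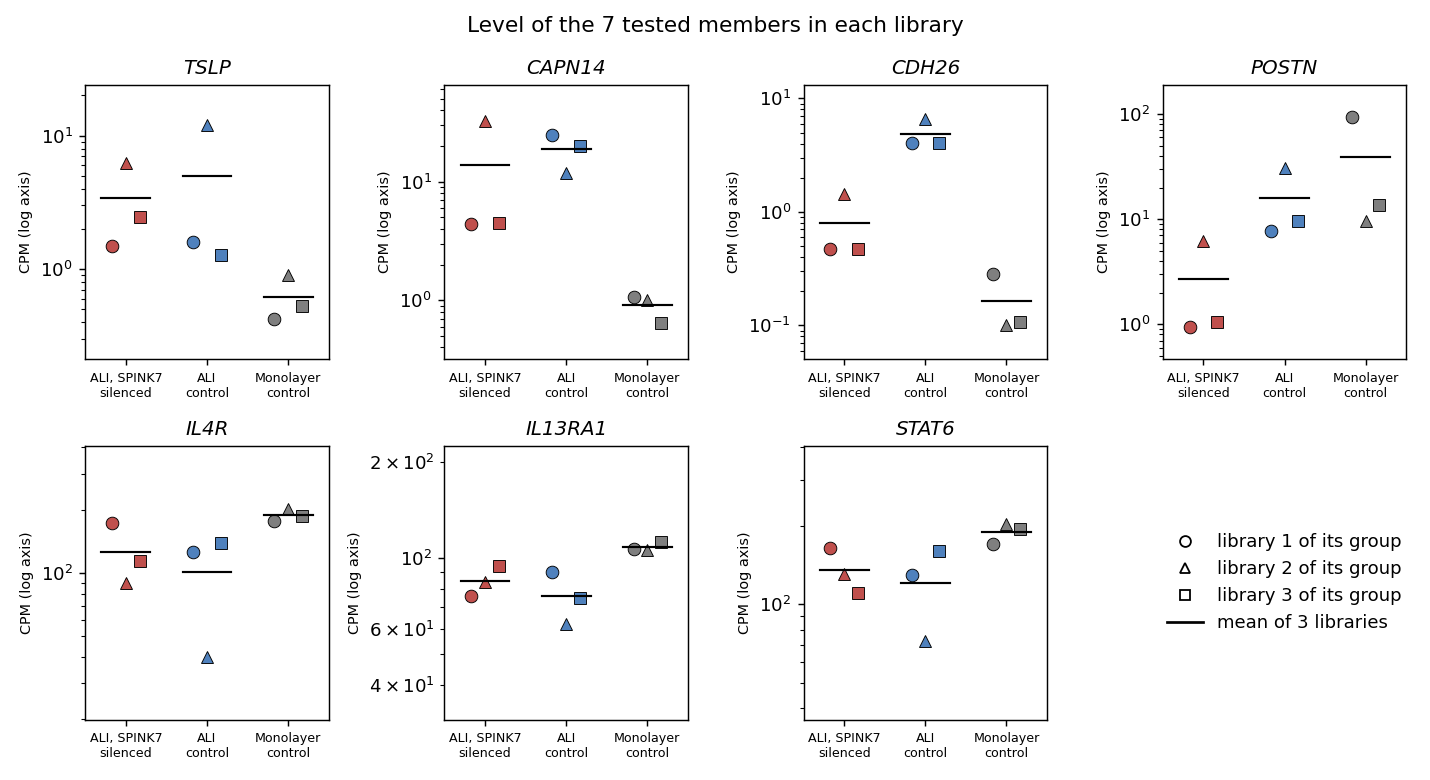
Level of each of the 7 tested genes in each of the 9 libraries, in CPM on a log axis; the symbol shows the library's number within its group and the bar is the mean of 3 libraries. ALI libraries 2 (triangles) give the highest TSLP, CDH26 and POSTN of both ALI groups, and for CAPN14 the highest silenced level (32.7 CPM) but the lowest ALI control level (11.7 CPM).

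TSLP, the alarm cytokine, was higher in ALI controls than in monolayers and did not differ detectably between silenced and control ALI cultures. It lies on chromosome 5 (110405778 to 110413722, plus strand, hg19 as in the deposited tables). All of its 267 counts stood on the row of the short form (start 110409012), and the rows of the long form and of a noncoding transcript were at 0 in every library. How the counting shared reads between rows is not given in the sources used here. This split therefore does not show which form was made. TSLP was at 1.49, 6.25 and 2.46 CPM in silenced libraries 1 to 3, at 1.61, 12.0 and 1.27 CPM in the ALI controls and at 0.425, 0.911 and 0.532 CPM in the monolayers. Library 2 was the highest of each ALI group, at 3.16 times the mean of the other 2 silenced libraries and 8.33 times the mean of the other 2 ALI controls, and every ALI library lay above every monolayer. In reads these levels were low, with 16, 91 and 21 counts in the silenced libraries, 12, 95 and 12 in the ALI controls and 6, 9 and 5 in the monolayers.

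In the ALI controls TSLP averaged 4.95 ± 6.09 CPM against 0.623 ± 0.255 CPM in the monolayers (SD, n = 3 each). The log2 fold change was 2.99 (SE 0.94, 95% interval 0.68 to 5.29, edgeR adjusted p = 0.0292). This call rested on several libraries. Without ALI control library 2 the log2 fold change was 1.22 (adjusted p = 0.190), and without both ALI libraries 2 it was 1.22 (adjusted p = 0.0707). Without monolayer library 1, 2 or 3 the adjusted p was 0.0985, 0.0587 or 0.0843. Over 20 alternative settings (other tools, filters and scalings, and libraries left out) the adjusted p ran from 0.00254 to 0.190, and 11 kept the call. Between silenced and control ALI cultures the log2 fold change was -0.51 (SE 0.81, 95% interval -2.51 to 1.48, adjusted p = 0.863), and the libraries overlapped. It was 1.27 without ALI control library 2 and 0.45 without both ALI libraries 2, and 0 of 20 alternatives passed the threshold. Silenced cultures stood 2.47 log2 units above the monolayers (SE 0.94, adjusted p = 0.0681). That difference was 1.67 without both ALI libraries 2 (adjusted p = 0.0143), and over the alternatives its adjusted p ran from 0.0075 to 0.243.

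CAPN14, the esophageal calpain, also rose with differentiation, and of the 7 tested members it varied most, relative to its mean, among the silenced libraries. The gene lies on chromosome 2 (31395922 to 31440411, minus strand, hg19). CAPN14 was at 4.39, 32.7 and 4.45 CPM (47, 476 and 38 counts) in the silenced libraries, at 24.7, 11.7 and 20.1 CPM (184, 93 and 190 counts) in the ALI controls and at 1.06, 1.01 and 0.638 CPM (15, 10 and 6 counts) in the monolayers. Silenced library 2 was at 7.40 times the mean of the other silenced libraries, whereas ALI control library 2 was at 0.524 times the mean of its group's other libraries. The ALI groups overlapped through silenced library 2, and all 6 ALI libraries lay above the monolayers.

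The mean CAPN14 level was 18.8 ± 6.55 CPM in the ALI controls and 0.904 ± 0.232 CPM in the monolayers (SD, n = 3 each). The log2 fold change was 4.34 (SE 0.84, 95% interval 2.29 to 6.39, adjusted p = 0.00274). All 20 alternatives kept this call, with an adjusted p of at most 0.015. The silenced cultures, at 13.9 ± 16.3 CPM, also stood above the monolayers, by 3.92 log2 units (SE 0.83, adjusted p = 0.00554). Without silenced library 2 this was 2.24 (adjusted p = 0.00351) and without both ALI libraries 2 it was 2.25 (adjusted p = 8.86e-05). Of 20 alternatives 19 kept the call, over adjusted p from 9.11e-07 to 0.0531, and the fit on log2(RPKM + 1) lost it. Silenced against control, CAPN14 differed by -0.43 (SE 0.68, 95% interval -2.09 to 1.23, adjusted p = 0.864) with all libraries. Without silenced library 2 the difference was -2.11 (adjusted p = 0.0267), and without both ALI libraries 2 it was -2.34 (adjusted p = 0.000253). Over the 20 alternatives it ran from -2.34 to -0.01, with adjusted p from 0.000148 to 1, and 3 passed the threshold, all of them without silenced library 2.

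CDH26, a cadherin of the epithelial surface that is raised in the inflamed esophagus, rose on differentiation and was lower in every silenced library than in any ALI control. It lies on chromosome 20 (58533471 to 58588168, plus strand, hg19). Its level was 0.467, 1.44 and 0.468 CPM in the silenced libraries, 4.02, 6.56 and 4.02 CPM in the ALI controls and 0.283, 0.101 and 0.106 CPM in the monolayers, with 4, 1 and 1 counts in the last. The 3 groups did not overlap in CPM, and silenced cultures lay between the other groups. The silenced libraries held 5, 21 and 4 counts, against 30, 52 and 38 in the ALI controls. The gap between silenced libraries 1 and 3 and the monolayers therefore rests on very few reads. In the ALI controls CDH26 stood 4.70 log2 units above the monolayers (SE 0.63, 95% interval 3.16 to 6.24, adjusted p = 0.000334), and all 20 alternatives kept the call. The silenced cultures stood 2.16 above the monolayers (SE 0.67, adjusted p = 0.0329), a call that was lost without silenced library 2 (1.33, adjusted p = 0.157), without both ALI libraries 2 (1.34, adjusted p = 0.128), without monolayer library 2 (0.109) and without monolayer library 3 (0.105). It was kept in 11 of 19 alternatives, with adjusted p from 0.0257 to 0.157, and was also lost with limma-voom (0.0565), log2(RPKM + 1) (0.0588), monolayers 2 and 3 summed (0.082), and without both ALI libraries 2 and monolayer library 1 (0.0599).

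Silenced against control, CDH26 differed by -2.54 on the log2 scale (SE 0.52, 95% interval -3.81 to -1.27). The edgeR adjusted p was 0.0566, so the difference missed the threshold of 0.05. CDH26 reached the low-count filter through the ALI controls, where it is high (3 libraries over the filter's level, against 1 silenced and 0 monolayer libraries), so a difference was built into its being tested in this contrast too. It passed in 8 of 20 alternatives, among them DESeq2 (adjusted p = 0.00204), the fit without silenced library 2 (-3.36, adjusted p = 0.014) and the one without both ALI libraries 2 (-3.07, adjusted p = 0.00421), over a range of adjusted p from 0.000991 to 0.239.

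POSTN encodes periostin, a matrix protein that IL-13 induces in epithelial cells and fibroblasts. The gene lies on chromosome 13 (38136719 to 38172981, minus strand, hg19). POSTN was at 0.934, 6.18 and 1.05 CPM in the silenced libraries, at 7.77, 30.8 and 9.52 CPM in the ALI controls and at 94.8, 9.71 and 13.5 CPM in the monolayers. Every silenced library lay below every ALI control and every monolayer, whereas ALI controls and monolayers overlapped. Monolayer library 1 was at 8.16 times the mean of the other monolayers. The 6 fibroblast markers summed to 185 CPM in that library and to 52.9 and 50.0 CPM in monolayers 2 and 3. They summed to 45.6, 20.8 and 28.8 CPM in the silenced libraries and 39.3, 12.2 and 49.2 CPM in the ALI controls. COL1A1, a collagen chain, gave 184 of the 185 CPM, LUM was at 0 in all libraries, and the part of these transcripts in the POSTN values was not tested.

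The silenced cultures averaged 2.72 ± 2.996 CPM of POSTN against 39.3 ± 48.0 CPM in the monolayers (SD, n = 3 each), and POSTN fell by 3.79 log2 units (SE 1.06, adjusted p = 0.0211). This call was lost without silenced library 1 (-3.38, adjusted p = 0.0613) and silenced library 3 (-3.43, adjusted p = 0.0856). Without monolayer library 1 the difference was -2.04 (adjusted p = 0.110), and without both ALI libraries 2 it was -5.31 (adjusted p = 0.0513). Of 20 alternatives 15 kept the call. Silenced against control, POSTN differed by -2.48 (SE 1.02, 95% interval -4.99 to 0.02, adjusted p = 0.474), and by -3.12 without both ALI libraries 2 (adjusted p = 0.510). It passed in 1 of 20 alternatives, the fit without both ALI libraries 2 and monolayer library 1 (adjusted p = 0.000194). Between ALI control and monolayer cultures it differed by -1.30 (SE 0.94, adjusted p = 0.289), and by 0.45 without monolayer library 1.

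CCL26, TNFAIP6 and LRRC31 were at or near 0 and did not reach the low-count filter. CCL26, the eotaxin-3 gene (chromosome 7, 75398842 to 75419064, minus strand), had 2 counts over the silenced libraries, 5 over the ALI controls, all of them in libraries 2 and 3, and 0 over the monolayers. TNFAIP6, which encodes a hyaluronan-binding protein made in inflammation (chromosome 2, 152214106 to 152236562, plus strand), had 3 counts over the silenced libraries, 2 over the ALI controls and 0 over the monolayers. LRRC31, a leucine-rich repeat gene tied to epithelial barrier function (chromosome 3, 169557029 to 169587660, minus strand), had 0 of the 91479382 counts, which allows a level of up to 0.0326 CPM over the 9 libraries. A count of 0 allows up to 0.0898 CPM over the 3 monolayers. These limits are 3 counts over the TMM-adjusted totals and cover counting error only. In edgeR without the low-count filter, neither CCL26 nor TNFAIP6 passed the threshold in any contrast. The lowest value was that of CCL26 in ALI control against monolayer (unadjusted p = 0.0289, adjusted p = 0.0853). With counts this small, a difference of either gene between groups can easily be missed at this depth.

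IL4R, IL13RA1 and STAT6, the receptor chains and their transcription factor, were all expressed in every library, and none of the 3 passed the test in any contrast. Each was lower in every ALI control than in any monolayer. IL4R (chromosome 16, 27325230 to 27376099, plus strand) was at 174, 90.1 and 114 CPM in the silenced libraries, at 126, 39.9 and 139 CPM in the ALI controls and at 178, 204 and 188 CPM in the monolayers. ALI control library 2 had the lowest level, 0.301 times the mean of its group's other libraries. IL13RA1 (chromosome X, 117861559 to 117928496, plus strand) was the steadiest, at 75.8, 83.7 and 94.5 CPM in the silenced libraries, 90.1, 62.2 and 75.0 CPM in the ALI controls and 107, 105 and 112 CPM in the monolayers. STAT6 (chromosome 12, 57489187 to 57505196, minus strand) was at 165, 131 and 111 CPM in the silenced libraries, at 130, 72.1 and 159 CPM in the ALI controls and at 170, 202 and 194 CPM in the monolayers. All silenced libraries lay below the monolayers for these 3 genes too.

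In ALI controls against monolayers, the log2 fold changes were -0.90 for IL4R (SE 0.41, adjusted p = 0.106), -0.51 for IL13RA1 (SE 0.19, adjusted p = 0.0561) and -0.65 for STAT6 (SE 0.29, adjusted p = 0.0948). The difference passed the threshold in 4 of 20 alternatives for IL4R, 4 for IL13RA1 and 2 for STAT6. Without both ALI libraries 2 the IL4R difference was -0.51 (adjusted p = 0.0408). Leaving out ALI control library 1 brought IL13RA1 to an adjusted p of 0.0387, and leaving out ALI control library 3 brought STAT6 to 0.0381. Silenced against control, the 3 genes overlapped between the groups, and their intervals were narrow beside those of the other members. They ran from -0.69 to 1.31 for IL4R, -0.31 to 0.63 for IL13RA1 and -0.53 to 0.87 for STAT6 on the log2 scale. The STAT6 locus overlaps NAB2 on the opposite strand. The row of NAB2 held 1980 counts over the 9 libraries, and whether the counting kept the strands apart is not given in the sources used here. A second STAT6 transcript row held between 0 and 20.7% of the gene's counts in a library, and 0, 13.1 and 0% in the monolayers.

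**Figure D2:**
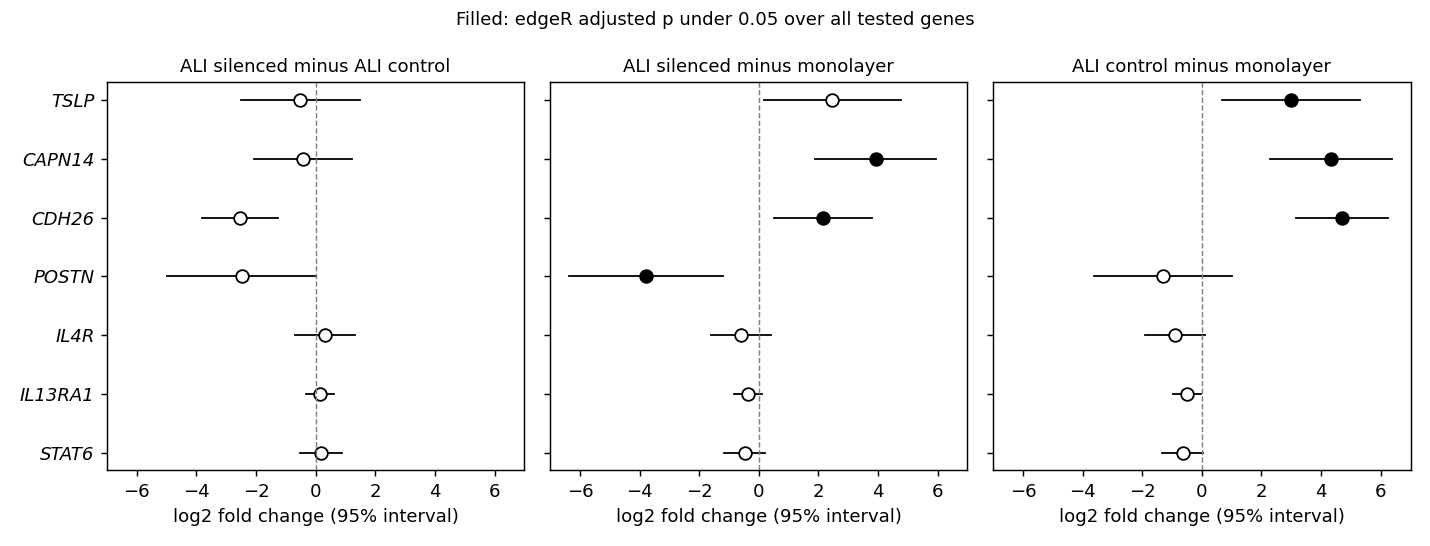
Log2 fold change of each tested gene in 3 contrasts, with its 95% interval; filled points have an edgeR adjusted p under 0.05. No gene is filled in silenced minus control, CAPN14, CDH26 and POSTN are filled in silenced minus monolayer, and TSLP, CAPN14 and CDH26 are filled in control minus monolayer.

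Set against all 12806 genes tested, the 7 tested members gave these counts. Silenced against control, 0 of 7 passed the threshold of 0.05 in edgeR, where 0.929% of all tested genes did (0.226% higher and 0.703% lower). At an unadjusted p under 0.05, CDH26 and POSTN passed, and DESeq2 and limma-voom each called 1 member, CDH26. CDH26 and POSTN did not overlap between silenced and control libraries, as 12.1% of tested genes did not. With differentiation, ALI control against monolayer, TSLP, CAPN14 and CDH26 rose (3 of 7, against 20.3% of tested genes) and 0 of 7 fell (20.2% of tested genes, 40.5% in either direction). All tested members but POSTN lay without overlap there, as did 57.3% of tested genes. Of these, TSLP and CDH26 reached the low-count filter through ALI libraries alone, so a difference was built into their being tested. Silenced against monolayer, CAPN14 and CDH26 rose (2 of 7, against 15.8% of tested genes) and POSTN fell (1 of 7, against 15.9%, with 31.7% in either direction). All 7 tested members lay without overlap there, as did 55.7% of tested genes. The median log2 fold change of the 7 was -0.43 silenced against control, -0.51 for control against monolayer and -0.35 silenced against monolayer, beside 0.01, 0.03 and 0.04 over all tested genes. The contrasts share libraries, so their values are not independent. In these bulk libraries fewer cells of a type and less RNA per cell cannot be told apart.

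**Figure D3:**
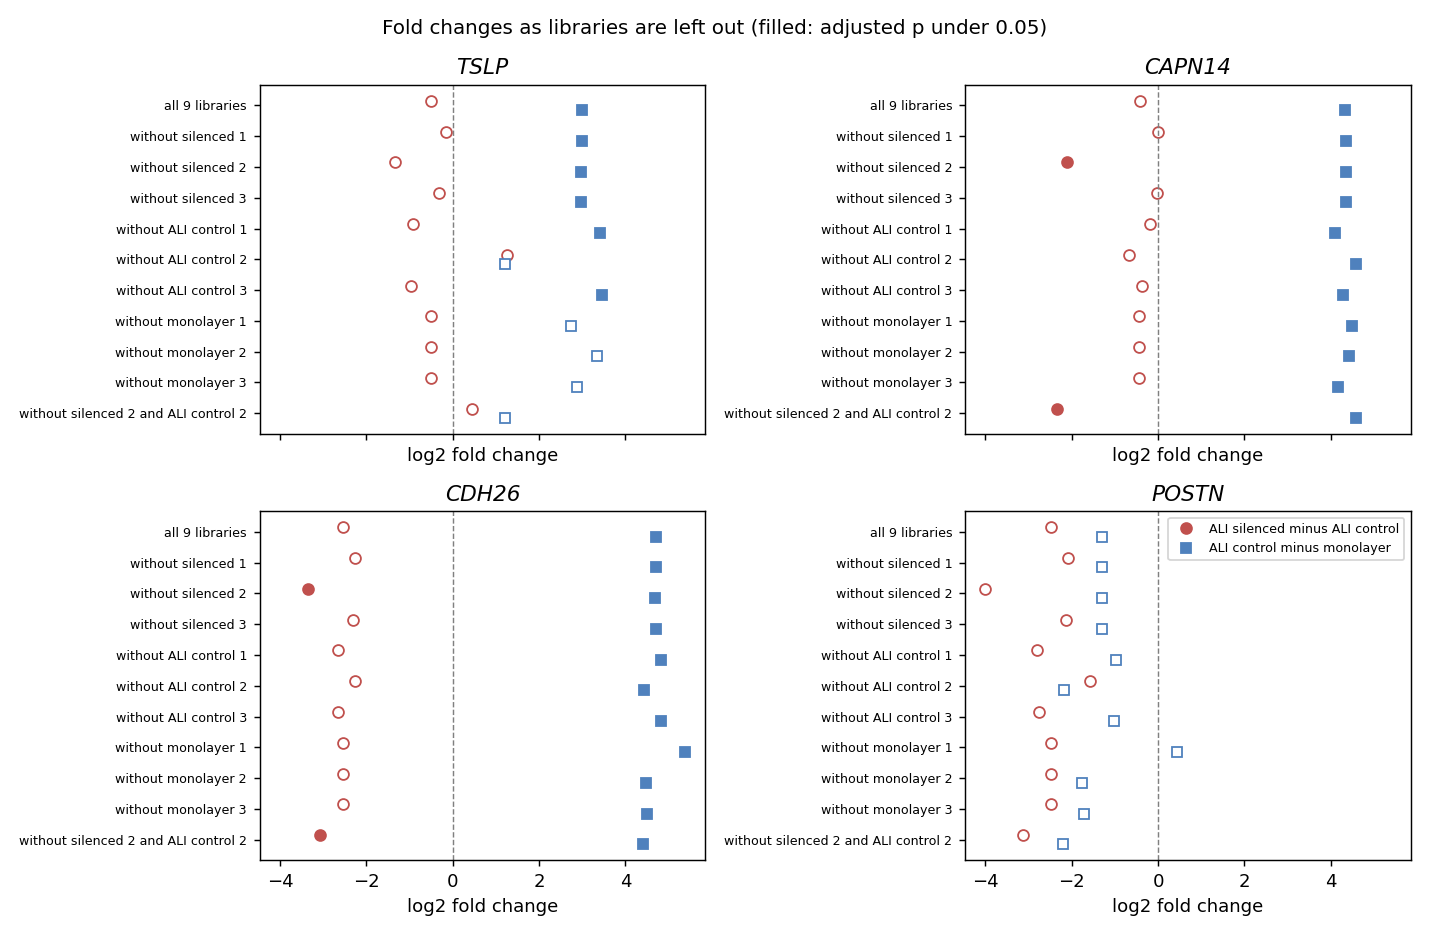
Log2 fold changes of TSLP, CAPN14, CDH26 and POSTN with all 9 libraries and with libraries left out, for silenced minus control (red circles) and control minus monolayer (blue squares); filled symbols have an adjusted p under 0.05. CAPN14 silenced minus control is -0.43 with all libraries and -2.11 without silenced library 2, and TSLP changes sign without ALI control library 2.

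Levels of different genes were compared per length, on the deposited RPKM values summed over a gene's rows. In the silenced cultures IL4R (30.03 ± 9.91 RPKM) and STAT6 (29.7 ± 5.61) led and overlapped each other, and IL13RA1 (18.3 ± 2.13) followed without overlapping either (SD, n = 3). CAPN14 (3.16 ± 3.76 RPKM), TSLP (1.25 ± 0.914), POSTN (0.767 ± 0.815) and CDH26 (0.337 ± 0.0702) came next, each overlapping the neighbour below it. In the ALI controls STAT6 (24.7 ± 10.3 RPKM), IL4R (23.0 ± 13.0) and IL13RA1 (15.2 ± 3.66) again led, each overlapping the next, and CAPN14 (3.98 ± 1.58), POSTN (3.84 ± 2.75), TSLP (1.56 ± 1.82) and CDH26 (1.37 ± 0.306) followed in a second overlapping run. In the monolayers IL4R stood at 47.3 ± 3.32 RPKM, STAT6 at 42.7 ± 4.01 and IL13RA1 at 24.3 ± 0.937. POSTN, at 10.97 ± 13.3 RPKM, overlapped IL13RA1 only through monolayer library 1, and TSLP, CAPN14 and CDH26 stood at 0.251, 0.212 and 0.0665 RPKM. The receptor chains and STAT6 were thus the most abundant of the 10 genes per length in each of the 3 groups.

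Other genes of IL-4 and IL-13 signalling, and other known members of these pathways, were described from lists. Of 17 receptor and signalling genes, 14 were tested. Silenced against control 0 passed in edgeR, DESeq2 or limma-voom (1 at an unadjusted p under 0.05), with a median log2 fold change of 0.22. The cytokine genes IL4 and IL13 themselves had 0 counts in every library. ALI control against monolayer, 5 of the 14 fell and 0 rose (20.2 and 20.3% of all tested genes), with a median of -0.51. They were SOCS3 (-2.78, adjusted p = 0.00291) and SOCS1 (-1.88, adjusted p = 0.0348), both feedback inhibitors of cytokine signalling, the kinase gene TYK2 (-1.45, adjusted p = 0.0114), the feedback inhibitor CISH (-1.13, adjusted p = 0.0447) and the adaptor IRS2 (-1.11, adjusted p = 0.00633). SOCS3 was at 1.61, 0.883 and 1.80 CPM in the ALI controls, against 13.1, 6.98 and 9.68 CPM in the monolayers. Silenced against monolayer 3 fell and 1 rose (15.9 and 15.8% of all tested genes). The feedback inhibitor SOCS3 (-1.47, adjusted p = 0.0452), CISH (-1.14, adjusted p = 0.0496) and IRS2 (-0.92, adjusted p = 0.0182) fell. IL13RA2, the decoy receptor of IL-13, rose there, at 1.49, 3.99 and 3.28 CPM in the silenced cultures against 1.06, 0.405 and 0.426 CPM in the monolayers (log2 fold change 2.14, SE 0.54, adjusted p = 0.0129).

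The TSLP receptor was not detected as a whole. CRLF2, its specific receptor chain, had 0 counts in every library. IL7R, the chain it pairs with, was at 0.748, 0.275 and 1.29 CPM in the silenced cultures, 2.01, 0.252 and 2.22 CPM in the ALI controls and 8.29, 9.51 and 12.5 CPM in the monolayers. IL7R fell by 2.73 log2 units ALI control against monolayer (SE 0.63, adjusted p = 0.0069) and by 3.76 silenced against monolayer (SE 0.67, adjusted p = 0.00223). Of 9 TSLP receptor and other alarmin genes, 7 were tested. Silenced against control 0 passed in edgeR, DESeq2 or limma-voom, and 0 had an unadjusted p under 0.05 (median 0.07). IL1RAP, the shared receptor chain of IL-33 and IL-1, was the other one past the threshold, so that 1 of 7 rose and 1 fell in each contrast against the monolayers, where 20.3 and 20.2% (ALI control) and 15.8 and 15.9% (silenced) of all tested genes did. IL1RAP rose in ALI controls (1.34, adjusted p = 0.00131) and in silenced cultures (0.86, adjusted p = 0.0152), each against the monolayers. The alarmin IL33 averaged 6.90 ± 2.74 CPM in the silenced cultures, 10.2 ± 2.47 CPM in the ALI controls and 11.45 ± 4.998 CPM in the monolayers (SD, n = 3 each), and it overlapped between the groups of each contrast.

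Other genes that are raised by IL-13 or in the diseased esophagus moved in both directions or did not pass. Of 18 on the list 9 were tested, and 0 passed silenced against control in edgeR, DESeq2 or limma-voom (2 at an unadjusted p under 0.05, median 0.15). ALI control against monolayer, the lysosomal protease gene CTSC (2.09, adjusted p = 0.00123), the serpin SERPINB4 (7.10, adjusted p = 5.91e-05) and the arginase ARG1 rose. ARG1, with 0 counts in the monolayers, was at least 249-fold higher in the ALI controls against a floor of 3 counts over the monolayers (edgeR adjusted p = 0.00263), and at least 65.8-fold without ALI control library 2. ANO1, a chloride channel (-2.45, adjusted p = 0.0281), TNC, the matrix protein tenascin C (-2.18, adjusted p = 0.0246), SOCS1 and CISH fell, and the list's median was -0.94, also with ARG1 at its bound. These are 3 of 9 higher and 4 lower, against 20.3 and 20.2% of all tested genes. SOCS1, CISH and IL13RA2 are also on the list of receptor and signalling genes, so the counts of these lists are not separate results. ARG1 was at 0, 0.275 and 0 CPM in the silenced cultures, against 6.16, 57.5 and 5.71 CPM in the ALI controls, an edgeR adjusted p of 0.0559 (0.000729 without both ALI libraries 2). ARG1 reached the low-count filter through the ALI controls alone, so a difference was built into its being tested in both contrasts. SERPINB4 reached the filter through ALI libraries alone, so its rise over the monolayers has the same limit. It had 49, 35 and 58 counts in the ALI controls and 1, 0 and 0 in the monolayers. The size of its fold change thus rests on 1 monolayer count. Silenced against monolayer, 3 rose and 2 fell (15.8 and 15.9% of all tested genes). The attractants CCL24 and CCL11, which like CCL26 act on eosinophils, did not reach the low-count filter. CCL24 had 1, 0 and 0 counts in the silenced libraries, 16, 6 and 37 in the ALI controls (2.14, 0.757 and 3.91 CPM) and 1, 0 and 0 in the monolayers, so every ALI control lay above every other library, and CCL11 was at 0 in all libraries.

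Among 16 genes known to be lowered in the disease, 12 were tested. The members of this list were written down with results of these libraries known, so its direction is not independent evidence. Silenced against control, 4 of the 12 fell and 0 rose, where 0.703% of all tested genes fell. They were FLG (-3.66, adjusted p = 0.0124), SPINK7, the desmosomal cadherin DSG1 (-2.81, adjusted p = 0.0124) and the esophageal keratin KRT4 (-1.98, adjusted p = 0.0138). SPINK7 was the gene silenced, so the count of 4 includes a fall that the design set. DSG1 was at 213, 171 and 304 CPM in the silenced libraries, against 1550, 1614 and 1648 CPM in the ALI controls, and the groups did not overlap. ALI control against monolayer, 11 of the 12 rose (20.3% of all tested genes), with a median of 8.30 (7.70 with CRISP3, at 0 counts in the monolayers, at its bound). SPINK7, CRISP3, ENDOU, EPB41L3, GCNT3 and KRT13 reached the low-count filter through ALI libraries alone, so a difference was built into their being tested. DSG1, FLG and KRT4 had fewer monolayer libraries over the filter's level than it asks for. The count of 11 is therefore in large part set by the filter. Silenced against monolayer, 9 rose (15.8% of all tested genes, median 6.45). SPINK7, ENDOU, GCNT3, KRT13, DSG1, FLG and KRT4 are among these 9, so this count has the same limit.

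Other genes of the risk loci and of the calpain system gave fewer calls. Of 9 other risk-locus genes 7 were tested, and 0 passed silenced against control in these 3 tools (1 at an unadjusted p under 0.05, median -0.05). In ALI controls, relative to monolayers, WDR36, the neighbour of TSLP (0.72, adjusted p = 0.0409), ANKRD27 (0.57, adjusted p = 0.0378) and LRRC32 rose (3 of 7, against 20.3% of all tested genes). Without both ALI libraries 2 the WDR36 difference was 0.43 (edgeR adjusted p = 0.0435). WDR36 was at 72.9, 110 and 59.1 CPM in the ALI controls, against 53.2, 44.7 and 49.2 CPM in the monolayers. Among the ALI controls it was highest in library 2, as TSLP was. In the silenced libraries (68.8, 56.9 and 76.4 CPM) and in the monolayers WDR36 was instead lowest in library 2, where TSLP was highest. LRRC32, with 0 counts in the monolayers, was at least 18.8-fold higher (adjusted p = 0.00369). LRRC32 reached the low-count filter through the ALI controls alone, so a difference was built into its being tested. Silenced against monolayer 0 of these 7 passed in edgeR (2 at an unadjusted p under 0.05), and DESeq2 called 2. Of the calpain system, 16 of 17 names were found and 11 genes were tested. The calpain inhibitor gene CAST (2.20, adjusted p = 5.25e-05) and the small subunit CAPNS2 (2.93, adjusted p = 0.00375) rose in ALI controls against monolayers, and the large subunit CAPN2 (-1.19, adjusted p = 0.0181) and small subunit CAPNS1 (-0.98, adjusted p = 0.0103) fell (2 of 11 each way, against 20.3 and 20.2% of all tested genes). Without both ALI libraries 2 the CAPNS2 difference was 2.14 (adjusted p = 0.000665). CAST was at 709, 909 and 889 CPM in the silenced cultures, 952, 1004 and 831 CPM in the ALI controls and 187, 211 and 209 CPM in the monolayers. CAST was the calpain-system gene called silenced against monolayer, with a log2 fold change of 2.04 (adjusted p = 0.000108; 1 of 11, against 15.8% of all tested genes), and 0 of the 11 passed silenced against control in the 3 tools (1 at an unadjusted p under 0.05, median 0.22).

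**Figure D4:**
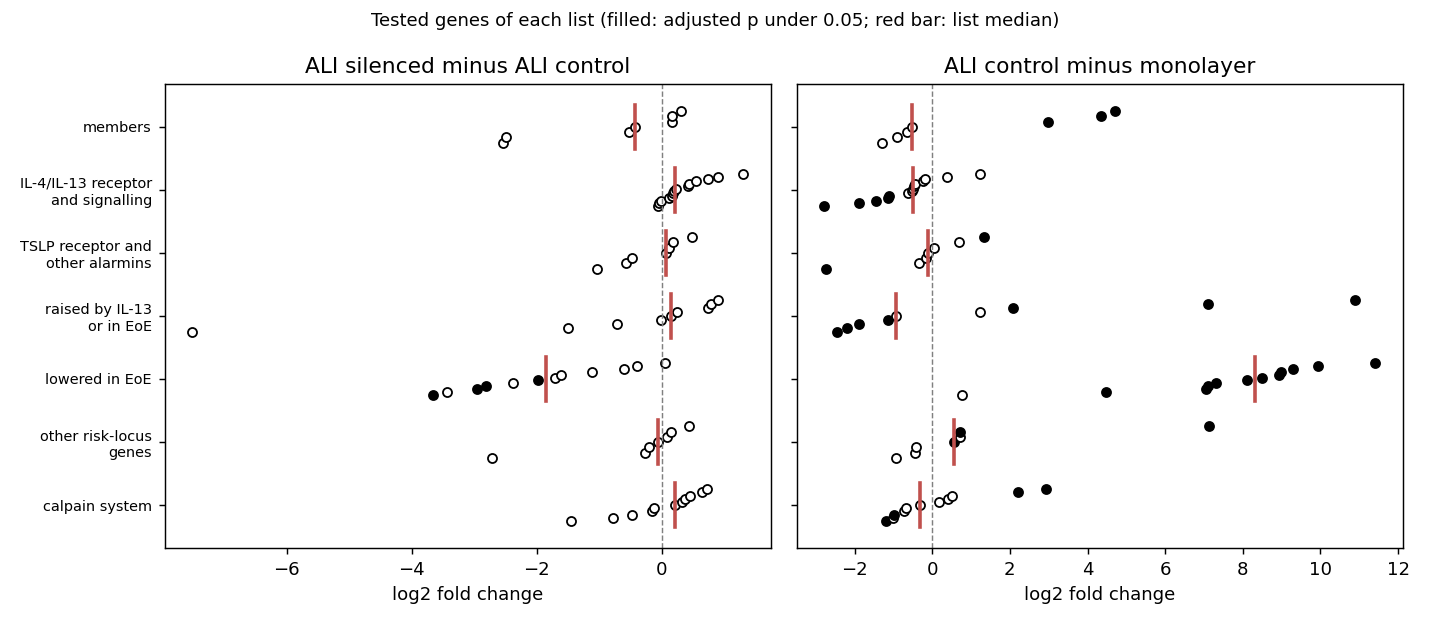
Log2 fold change of the tested genes of each list, silenced minus control (left) and control minus monolayer (right); filled points have an edgeR adjusted p under 0.05 and the red bar is the list's median. Filled points on the left are limited to 4 genes of the list lowered in the disease, the silenced gene SPINK7 among them. The fitted values of ARG1, LRRC32 and CRISP3 on the right rest on 0 monolayer counts and are not bounds. That of SERPINB4 rests on 1 monolayer count.

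Across the 9 libraries, the genes whose log2 CPM followed each member most closely were taken by Pearson's r, as a description over libraries that share groups. For TSLP they were MCCC1 (r = 0.988), RPRD1A (0.986) and TMEM38B (0.984). MCCC1 was at 10.8, 17.8 and 12.2 CPM in the silenced libraries, 10.6, 25.9 and 11.6 CPM in the ALI controls and 7.08, 8.80 and 7.56 CPM in the monolayers, so it too was highest in ALI libraries 2. For CAPN14 they were PRSS22 (0.979), DOCK3 (0.974) and TTC39A (0.973), and PRSS22, a serine protease gene, was at 10.7, 35.2 and 9.01 CPM in the silenced libraries, 23.6, 15.9 and 30.7 CPM in the ALI controls and 1.35, 2.13 and 1.38 CPM in the monolayers. PRSS22 thus had the same high silenced library and the same low ALI control library as CAPN14. For CDH26 they were UPK3BL (0.988), POLR2J3 (0.987) and DAPL1 (0.985), of which UPK3BL and POLR2J3 have near-identical copies and uncertain counts. For IL4R they were ATP13A2, STXBP2 (both 0.998) and SPTAN1 (0.996), and for STAT6 HGS led at 0.994. POSTN (DMTF1, 0.975) and IL13RA1 (BPHL, 0.966) had the lowest leading values.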

How the data were processed

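PolyA-selected, stranded RNA libraries were sequenced from the 9 samples, per the labels' protocols. The submitters' processing notes list hg19 as the build and name STAR 2.4.2a, Bowtie and MACS2 with no role for any of them. Which tool counted reads, on which annotation and with what regard to strand is not given in the sources used here. The deposited tables hold, per transcript row, raw counts and RPKM values made by the authors. Counts were summed per gene symbol and chromosome. Rows that name several genes held 0.411 to 0.554% of a library's counts.

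The test was edgeR 4.0.16 (R 4.3.3), with TMM scaling, filterByExpr by group (12806 genes) and glmQLFit (robust) on the 9 libraries together, which leaves 6 residual degrees of freedom. P-values were Benjamini-Hochberg adjusted over all tested genes within a contrast, with a threshold of 0.05. SEs come from the F statistic, and 95% intervals use 6 degrees of freedom. CPM are counts scaled by TMM-adjusted library totals. The script was tested on simulated data. The 20 alternatives included DESeq2 1.42.0, limma 3.58.1 (voom, and log2(RPKM + 1)), other filters and scalings, and libraries left out. The one without both ALI libraries 2 and monolayer library 1 was added after seeing the data. Coordinates are hg19 as deposited, and sequences are GRCh38 (GENCODE 29, RefSeq).

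The members and lists were chosen with earlier results of these data known. Named genes are the members, SPINK7, up to 4 called genes with the largest change per list and contrast, and the 3 genes most like each member. Other genes (MKI67, IL33, CCL24, CCL11, COL1A1, VWF, ARG1 in the silenced cultures, and marker or receptor genes at 0) were named after their values were seen. So were list genes named for how they reached the low-count filter or for fits without ALI libraries 2. The labels leave it unsaid if the libraries of a group are from separate cultures. P-values therefore measure library-to-library spread, which may be technical only. Monolayer libraries 2 and 3 were the closest pair of a group but differed beyond sampling noise (chi-square of 1.89 per gene, against 16.4 to 155 for other pairs), and were kept apart.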

Additional observations from a re-analysis of the deposited data

How the results depend on the processing

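Numbers below are genes called at an adjusted p under 0.05 unless they are log2 fold changes, and the cause of a change was not tested. SPINK7 and the differentiation calls of CAPN14 and CDH26 passed in all 20 alternatives, and DESeq2 size factors within edgeR moved no member across the threshold. Low counts limit TSLP, CDH26, CCL26 and TNFAIP6, and 3 libraries a group limit every call.

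Silenced against control, signs turned for TSLP with limma-voom (0.074), without both ALI libraries 2 (0.45), without these and monolayer library 1 (0.44) and without ALI control library 2 (1.27). With 1 library left out TSLP ran from -1.33 to 1.27, with its lowest value without silenced library 2 and its highest without ALI control library 2. STAT6 ran from -0.093 to 0.43 and IL4R from -0.074 to 0.61, with the negative values without ALI control library 2. STAT6 was at -0.070 without both ALI libraries 2 and at -0.074 without these and monolayer library 1. Control against monolayer, POSTN ran from -2.19 to 0.45, the last without monolayer library 1.

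Silenced against control, 119 genes were called in all. The number was 415 with DESeq2, 59 on the 2 groups alone, 79 with monolayers 2 and 3 summed, 708 without both ALI libraries 2 and 1041 without these and monolayer library 1, and 28 to 236 with 1 library left out. Members called were 1 instead of 0 with DESeq2, limma-voom, no filter, the replicate block or RPKM, 2 without both ALI libraries 2, 3 without these and monolayer library 1, and 0 to 2 with 1 library left out. Of the genes raised by IL-13, 1 was called with no filter, the block or RPKM, 3 and 5 in the fits without ALI libraries 2, and 0 to 2 with 1 library left out. Of the genes lowered in the disease, SPINK7 included, 7 were called with DESeq2, and 8 and 10 without ALI libraries 2. With 1 library left out, 1 to 6 of them were called. Without ALI libraries 2, 1 risk-locus gene was called in both fits (0 to 1 with 1 library left out), and 1 and 2 calpain-system genes. In the fit without both ALI libraries 2 alone, these were LRRC32 (-4.60, edgeR adjusted p = 0.0255) and CAPN5 (-1.68, adjusted p = 0.0125). CRISP3 (-6.02, adjusted p = 0.00132) was among the 8 genes lowered in the disease. In silenced libraries 1 and 3, LRRC32 had 1 and 0 counts and CRISP3 had 0 and 2.

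Control against monolayer, 5 members were called on RPKM and 2 to 4 with 1 library left out. With monolayers 2 and 3 summed, calls were 1 (risk loci, as on the 2 groups alone), 3 (IL-4 and IL-13 signalling) and 4 (raised by IL-13). With 1 library left out they were 1 to 3, 3 to 5 and 4 to 8, and 2 to 5 for the calpain system.

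Silenced against monolayer, 6459 and 6329 genes were called without ALI libraries 2 and 2653 to 5743 with 1 library left out, against 4058. Members called were 1 on RPKM and 2 to 4 with 1 library left out. Risk-locus calls were 2 with DESeq2, the 2 groups alone or without ALI libraries 2, 1 without these and monolayer library 1, and 0 to 2 with 1 library left out. Calpain-system calls were 2 with no filter or the block, 3 with DESeq2, 5 on the 2 groups alone, 6 in both fits without ALI libraries 2, and 1 to 6 with 1 library left out. With monolayers 2 and 3 summed, 1 gene each was called for IL-4 and IL-13 signalling, TSLP receptors and genes raised by IL-13. Without ALI libraries 2 and monolayer library 1, 7 and 8 were called for the first and last of these, and with 1 library left out 0 to 6, 1 to 2 and 1 to 7.

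Replicate numbers were not shown to pair the samples, and deviations from means of 3 libraries cannot decide it. Deviations of same-numbered silenced and control libraries correlated at 0.495, 0.577 and -0.006, and those with monolayers at -0.217 to 0.128. Differently numbered silenced and control libraries correlated at -0.691 (silenced 1 with control 2) to 0.637 (silenced 1 with control 3). With the number as a replicate block, 176 genes were called silenced against control, CDH26 among them (adjusted p = 0.0329).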
